A study of Danio rerio with 4 samples.

Results

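T cells of the injured zebrafish kidney were taken from 4 single-cell libraries by a rule on raw unique molecular identifiers (UMIs, 1 per captured transcript). A cell counted as a T cell when it held a UMI of 2 or more of lck, zap70, cd4-1, cd8a, cd28 and trac and no UMI of the NK-lysin genes nkl.2, nkl.3 and nkl.4, the perforin gene prf1.9 or the B cell receptor genes cd79a and cd79b. Of 31008 cells, 1128 met the rule. They were set beside 502 NK-type cells (2 or more of the nkl genes and prf1.9), 1072 B-type cells (both cd79 genes) and the 29378 cells that were neither T nor NK-type cells, called all other cells here.

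T cells carry an antigen receptor made of rearranged alpha and beta or gamma and delta chains. When it binds, the kinase Lck phosphorylates the receptor complex, Zap70 docks there and the adaptor Lat relays the signal, while the co-receptors Cd4 and Cd8 mark helper and cytotoxic lineages. In fish the kidney is the main site of adult blood formation, so that mature lymphocytes lie there among developing blood cells and nephrons.

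All libraries came from kidneys of AB zebrafish, a wild-type laboratory strain, 4 days after an intraperitoneal injection of gentamicin, an antibiotic that damages kidney tubules (a dose of 20 μl for each fish, at 2.7 μg/μl). They formed 1 group of 4 libraries with no uninjured kidney among them, so every comparison is between classes of cells and none is between injured and uninjured fish. How fish were divided among the libraries is not given in the sources used here, and the spread between libraries may be partly technical. The 4 libraries held 5821 to 9831 cells and 59350367 to 87759842 UMIs.

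Libraries 3 and 4 stood apart from libraries 1 and 2. Their median was 9953.5 and 9883 UMIs per cell against 4643.5 and 4358, and the 13 protein genes of the mitochondrial genome were listed only in libraries 3 and 4. Libraries 1 and 2 shared 108 cell barcodes and libraries 3 and 4 shared 46, against 1 to 7 for a library of each pair. No barcode was shared between T cells.

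T cells made up 2.42% of the cells of library 1 (219 of 9048, exact 95% interval 2.11 to 2.76%), 2.08% of library 2 (204 of 9831, 1.8 to 2.38%), 5.85% of library 3 (369 of 6308, 5.28 to 6.46%) and 5.77% of library 4 (336 of 5821, 5.19 to 6.40%). Intervals here cover counting error only. The mean was 4.03% ± 2.06 (SD, n = 4), and the shares in libraries 3 and 4 lay above those in libraries 1 and 2 with no overlap of the intervals. The T cells of these libraries were also deeper, with a median of 5649 and 5573 UMIs against 3166 and 3163. With every cell thinned to 2000 UMIs, which left out 5409 shallower cells, all of them outside libraries 3 and 4, the rule found 2.60, 2.2, 4.77 and 4.59% in libraries 1 to 4. Leaving out the shallower cells without thinning, an alternative added after seeing the data, gave 2.86 and 2.44% in libraries 1 and 2, so that part of the smaller gap came from the cells left out. The gap between the library pairs did not close under either. In libraries 3 and 4 the 2000 UMIs can include the 13 mitochondrial genes listed only there. Thinning thus did not fully match depth in the other genes. B-type cells also had larger shares in libraries 3 and 4, at 2.87, 2.73, 4.45 and 4.52% of the cells of libraries 1 to 4. After thinning they stood at 1.89, 1.78, 1.65 and 2.15%. NK-type cells took the opposite order to T cells with overlapping intervals, at 1.71, 1.84, 1.32 and 1.43% of the cells of libraries 1 to 4. The libraries' effect on these shares cannot be told apart from differences between the fish.

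**Figure D1:**
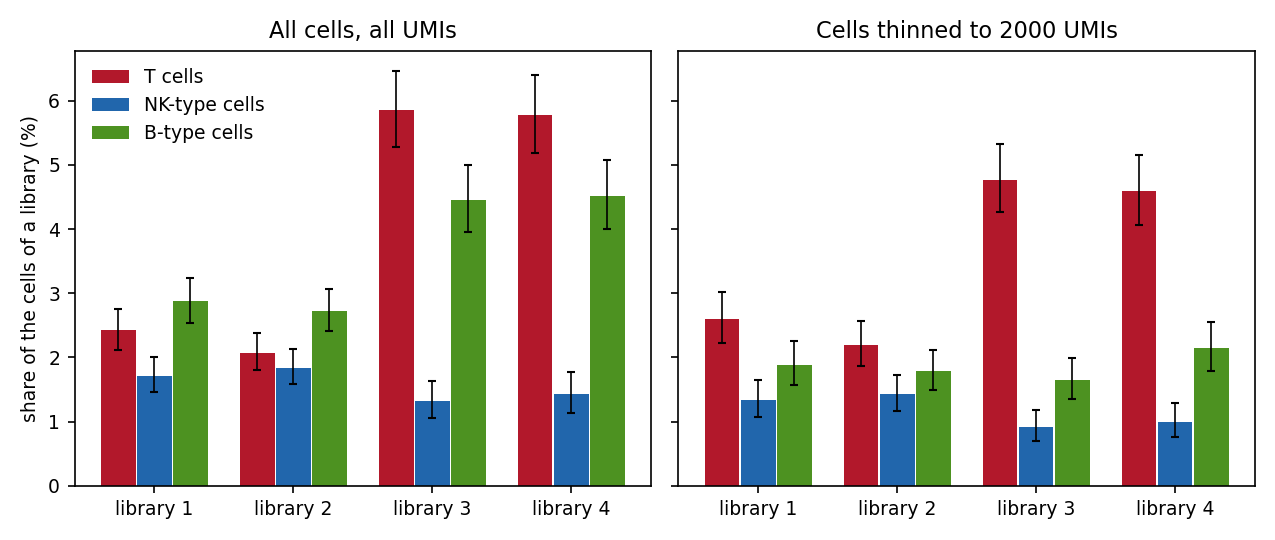
Share of T cells, NK-type cells and B-type cells among the cells of each library in percent, for all cells (left) and for cells thinned to 2000 UMIs with the rule applied again (right). Bars are the shares and whiskers exact 95% intervals; T cells lie at 2.08 to 2.42% in libraries 1 and 2 and at 5.77 to 5.85% in libraries 3 and 4, and at 2.2 to 2.60% and 4.59 to 4.77% after thinning.

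The 6 genes that chose the cells are described without a test. trac, the constant region of the receptor alpha chain, had a UMI in 93.5% of T cells, zap70 in 81.6%, lck in 63.4%, cd4-1 in 34.5%, cd28, the main costimulatory receptor, in 25.5% and cd8a in 16.1%. The commonest sets were lck, zap70 and trac together in 173 cells, zap70 and trac alone in 163 and all but cd8a in 125. Of the T cells, 365 had 2 of the 6 genes, 369 had 3, 259 had 4, 134 had 5 and 1 had all 6.

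Levels of trac in T cells hardly moved between libraries, at 836, 826, 821 and 809 CPM (counts of a gene per 1000000 UMIs of the summed cells) in libraries 1 to 4. In NK-type cells trac stood at 263, 286, 326 and 325 CPM, and in B-type cells at or below 4.63 CPM. The rule did not gather every transcript of its genes: T cells held 59.2% of the trac UMIs of the kidney, NK-type cells 8.44% and cells outside the named classes 26.7%. cd4-1 is shared with macrophages, and macrophage-type cells (3 or more of 7 macrophage genes) held 13.4% of its UMIs.

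At the edge of the rule, 1239 cells had exactly 1 of the 6 genes and none of the excluded ones. Pooled over these cells, itk, a kinase downstream of the receptor, stood at 9.61 CPM, against 127 CPM in T cells with 2 rule genes, 186 CPM with 3 and 177 CPM with 4 or more. The order was the same for lat, at 17.9, 218, 287 and 282 CPM. The step therefore lay between 1 and 2 rule genes for both, although cells with 1 gene were deeper, with a median of 8815 UMIs. This did not hold for every gene. In the same order foxp3a stood at 0.193, 54.4, 82.7 and 565 CPM and cd27 at 0.709, 27.2, 83.6 and 332 CPM (both described below). Cells with 2 and with 4 or more rule genes were thus not alike in these.

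**Figure D2:**
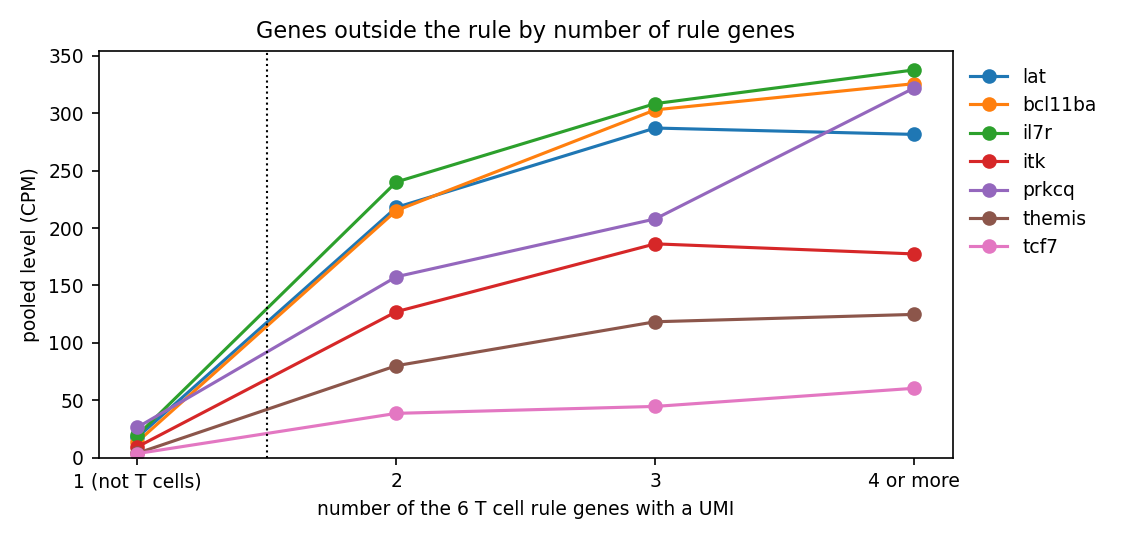
Pooled level in CPM of 7 genes outside the rule (lat, bcl11ba, il7r, itk, prkcq, themis, tcf7) in cells with 1, 2, 3 and 4 or more of the 6 rule genes, each without UMIs of the excluded genes. The dotted line marks the rule; itk rises from 9.61 CPM left of it to 127 CPM right of it.

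Of 1548 cells with 2 or more of the 6 genes, 312 were turned away with a UMI of an NK gene, 144 with a UMI of a B gene and 36 of these with both. The 108 cells turned away for a B gene alone nearly all held cd79a (105 cells), and 62 of them held a single UMI of the cd79 genes. These cells had itk at 172 CPM and bcl11ba at 246 CPM, within the range of the T cells kept. The B cell marker pax5 was outside that range, at 5.07, 7.23 and 1.58 CPM in T cells with 2, 3 and 4 or more rule genes. It stood at 57.0 CPM in the 108 cells, with a UMI in 3.70% of them. foxp3a, the transcription factor of regulatory T cells, had a UMI in 45.4% of them and in 16.1% of the T cells kept. The rule thus left out cells rich in foxp3a, which bears on each count of foxp3a cells below. They were also deeper, at a median of 6636 UMIs against 4831. These 108 cells, and 180 cells turned away with a UMI of only 1 NK gene, stayed among all other cells. The 108 cells held 742 of the 1267 foxp3a UMIs and 322 of the 694 cd27 UMIs of all other cells. The 276 cells turned away for an NK gene without a B gene, NK-type cells included, held 400 foxp3a and 205 cd27 UMIs. All NK-type cells together held only 5 and 27, so most of these UMIs also lay in all other cells. Levels of T cell genes given below for all other cells thus come in part from cells that the rule turned away. For foxp3a and cd27 they come mostly from such cells.

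The label held for genes that the rule did not use. Since the cells were chosen by 6 genes of the same profiles, the tests that follow describe which other genes go with them and are no independent proof of the cell type. Summed counts of T cells and of all other cells were compared over the 4 libraries with edgeR's quasi-likelihood test, adjusted over 20228 genes, with the 12 genes of the rule taken out. The median log2 fold change of all genes was -0.16. Of these genes 9.10% were higher and 14.3% lower in T cells (1841 and 2898 genes, 23.4% together), 12.0% had every T cell library above all others and 18.6% below, and with the library as a block 2804 were higher and 4656 lower. Without any 1 library 1538 to 1869 genes were lower. Of the 4739 calls 2766 to 3031 were kept with the same sign without any 1 library, and 3398 at 2000 UMIs per cell.

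The receptor and its signalling chain were higher in T cells. Of 17 genes listed for the receptor complex and its partners, 7 were found by name in the libraries. Of these 7 genes 6 were higher in T cells, with a median log2 fold change of 4.66. Of 40 listed signalling genes 34 were found, of which 22 were higher and 1 was lower, with a median of 1.47. The costimulation and effector lists below likewise had 21 of 28 and 33 of 40 genes found. lat, the membrane adaptor that Zap70 phosphorylates, stood at 377, 492, 194 and 229 CPM in the T cells of libraries 1 to 4 and at 4.04 to 6.99 CPM in all other cells. The lowest T cell value was far above the highest of the others (log2 fold change 5.78 ± 0.41 SE, adjusted p = 2.0e-05). themis, which sets the threshold of receptor signalling in mouse thymocytes, reached 114, 157, 107 and 97.4 CPM against 1.65 to 1.84 CPM (6.03 ± 0.22, adjusted p = 3.4e-07).

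cd5, a surface receptor that restrains signalling, stood at 81.0, 97.1, 85.0 and 70.5 CPM in T cells against at most 1.45 CPM elsewhere, a log2 fold change of 5.90 ± 0.21. prkcq, the protein kinase C of the T cell synapse, stood at 223, 257, 233 and 252 CPM against 10.4 to 13.6 CPM, a log2 fold change of 4.33 ± 0.14. Neither gene's groups overlapped. The adaptors skap1 and sh2d1ab and the receptor-driven factor nfatc2b were higher by 4.04, 5.70 and 5.06 on the log2 scale, all with adjusted p at or under 3.8e-05. The signalling gene that was lower, the Src-like adaptor sla1, fell by 1.60 (adjusted p = 0.0014). cd3eap, the listed partner that did not pass (adjusted p = 0.79), encodes an RNA polymerase subunit despite its name.

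Delta and gamma chain transcripts were present as well. trdc, the delta constant region, stood at 112, 172, 120 and 67.9 CPM in T cells against 3.53 to 5.23 CPM elsewhere (log2 fold change 4.73 ± 0.30). trgv2, a gamma variable segment, stood at 126, 147, 104 and 62.0 CPM against 1.24 to 3.46 CPM (5.77 ± 0.44, adjusted p = 2.9e-05). Receptor segments and the chemokine, granzyme and immune-type receptor (nitr) families named here have near-identical copies, so that reads may be split among them.

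**Figure D3:**
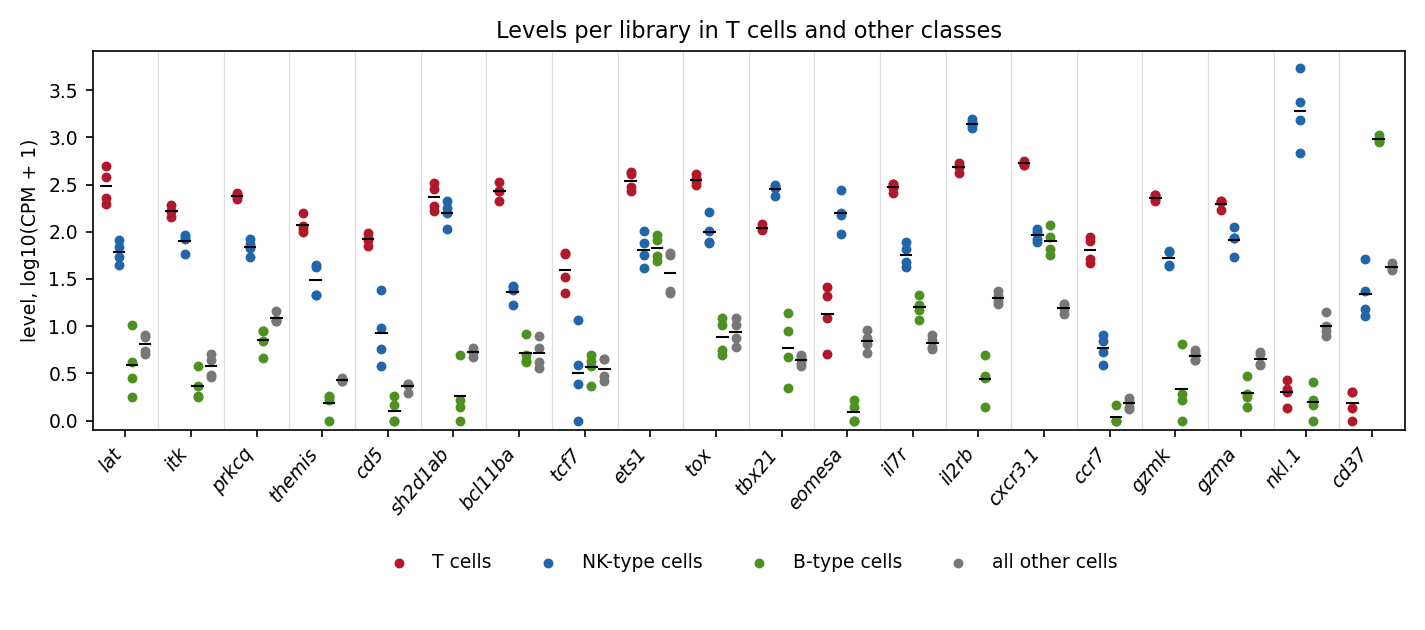
Level of 20 genes in T cells, NK-type cells, B-type cells and all other cells on a log10(CPM + 1) scale, with 1 point for each of the 4 libraries and a line at the mean of the points. lat, itk, prkcq, themis, cd5, bcl11ba and cxcr3.1 are highest in T cells in every library, tbx21, eomesa, il2rb and nkl.1 in NK-type cells and cd37 in B-type cells.

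Among 42 T cell transcription factors 26 were higher and 3 lower, with a median log2 fold change of 2.11. bcl11ba, whose mammalian homologue holds cells to the T lineage, stood at 209, 272, 332 and 271 CPM against 2.63 to 6.94 CPM (log2 fold change 5.87 ± 0.33, adjusted p = 4.7e-06). tox, a factor of thymocyte selection, stood at 311 to 411 CPM against 4.97 to 11.3 CPM (5.40 ± 0.27), and both were separate from all other cells in every library. tcf7, the Wnt-responsive factor of early and memory T cells, was at a lower level, 21.3, 32.4, 57.9 and 56.4 CPM, against 1.64 to 3.51 CPM (3.93 ± 0.38, adjusted p = 0.00011).

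Factors of the helper programmes known from mammals were all found. tbx21, of type 1 responses, stood at 118, 109, 103 and 109 CPM in T cells against 2.78 to 3.99 CPM (log2 fold change 4.93 ± 0.16). gata3, of type 2 responses, was lower and less even, at 75.9, 103, 38.1 and 36.1 CPM against 10.7 to 22.8 CPM (1.84 ± 0.41, adjusted p = 0.012). foxp3a reached 198, 262, 291 and 296 CPM against 1.12 to 7.07 CPM (5.86 ± 0.52, adjusted p = 6.9e-05), and its paralogue foxp3b 52.0 to 63.8 CPM against at most 0.511 CPM (7.22 ± 0.33). rorc, of interleukin-17 responses, passed the test (4.32 ± 0.94, adjusted p = 0.01), but 1 cell held 195 of its 312 UMIs in T cells, and with 3 or more rule genes asked of a T cell its log2 fold change was 1.46 (adjusted p = 0.36). id2a, an inhibitor of E proteins used by innate lymphocytes, fell by 2.24.

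Of 19 cytokine receptor genes tested 10 were higher and 5 lower. il7r, the receptor for the survival cytokine interleukin-7, stood at 258, 320, 292 and 320 CPM against 4.78 to 7.15 CPM (log2 fold change 5.61 ± 0.17, adjusted p = 3.1e-07). il2rb, shared by interleukin-2 and interleukin-15, stood at 421, 481, 496 and 531 CPM against 16.2 to 22.7 CPM (4.58 ± 0.15). The interleukin-21 and interleukin-10 receptor genes il21r.1 and il10ra were higher by 4.00 and 2.45, while il6r fell by 2.70 (adjusted p = 0.0012).

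Of 21 genes of costimulation, inhibition and early response 15 were higher and 2 lower. dusp2, a phosphatase that rises after receptor signalling, was the most abundant at 4012, 4065, 2973 and 3516 CPM against 104 to 168 CPM in all other cells (log2 fold change 4.66 ± 0.31). nr4a1, an early gene of receptor signalling, followed at 825 to 1170 CPM (2.93 ± 0.18). cd40lg, the helper ligand for B cells and macrophages, stood at 69.8, 77.4, 65.2 and 64.9 CPM against at most 1.14 CPM (6.17 ± 0.23). cd27, a costimulatory receptor of the tumour necrosis factor family, reached 123, 71.6, 193 and 197 CPM against at most 3.98 CPM (5.85 ± 0.53), with the lowest value in library 2.

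Of 30 effector cytokine and cytotoxic genes 18 were higher and 5 lower. The granzymes gzmk and gzma, proteases of cytotoxic granules, stood at 212 to 244 and 169 to 212 CPM against 3.34 to 4.55 and 2.84 to 4.31 CPM, with log2 fold changes of 5.81 ± 0.19 and 5.71 ± 0.21. Both were separate from the other cells in every library. UMIs of gzmk were found in 46.3% of T cells (exact 95% interval 43.3 to 49.2%) and in 0.688% of neutrophil-type cells, which should lack it, at median depths of 4831 and 7247 UMIs. For gzma the shares were 34% (31.3 to 36.9%) and 0.312%.

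Chemokine genes were uneven among libraries and cells. ccl34b.4 stood at 977 and 1035 CPM in the T cells of libraries 1 and 2 and at 3045 and 3171 CPM in libraries 3 and 4, against 33.5 to 69.2 CPM in all other cells (log2 fold change 5.26 ± 0.52). ccl38a.4, the gene of largest fold change among those of at least 100 CPM, stood at 37.5, 57.8, 314 and 429 CPM against 0.310 to 3.66 CPM (6.93 ± 1.09, adjusted p = 0.0019). It had UMIs in 130 T cells, and the 10 cells with most held 44.0% of them. The interleukin and tumour necrosis factor genes were low: tnfa had UMIs in 49 T cells, il10 in 24 and il22 in 8. Those of il4 and il13 lay in 5 and 12 T cells, and those of il17a/f1 and il17a/f3 in 4 and 14. il13 was lower in T cells than in all other cells, by a log2 fold change of -3.74 to -2.95 with 1 library left out. The call of tnfa (3.41, adjusted p = 0.005) was lost in libraries 1 and 2 alone (1.07, adjusted p = 0.12).

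Of 24 homing and adhesion genes 11 were higher and 2 lower. cxcr3.1, a receptor for inflammatory chemokines, stood at 567, 513, 513 and 524 CPM against 12.3 to 16.3 CPM (log2 fold change 5.08 ± 0.18). It had a UMI in 73.8% of T cells (71.1 to 76.3%) against 1.03% of neutrophil-type cells. ccr7, the receptor for lymphoid homing, stood at 45.5 to 88.1 CPM against at most 0.744 CPM (6.87 ± 0.42), and ccr9a at 287 to 661 CPM against 69.9 to 119 CPM (2.21 ± 0.34). Of 14 genes for class I antigen presentation 11 were higher and 1 lower, among them b2m by 1.60 and tap1, the peptide transporter, by 1.64.

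Few transcripts of antigen receptor rearrangement were found in T cells. rag1 had 1 UMI in 1 of 1128 cells, and rag2 had none, so that at most 0.266% of T cells could hold a UMI, which limits detection and not expression. Of 10 genes of thymocytes and recombination none was higher and 5 were lower. The 20 genes of cell division showed 0 higher and 3 lower in T cells, near the share of all genes that were lower (14.3%). The 3 were stmn1a, mcm2 and pcna, and the call of pcna was lost without library 1, 2 or 3 and with 3 or more rule genes asked of a T cell (adjusted p 0.064 to 0.12). mki67, a proliferation marker, had UMIs in 7.89% of T cells (6.38 to 9.62%) and in 23.1% of B-type cells at nearly the same depth. In T cells thinned to 2000 UMIs the share for mki67 was 5.94%, and in B-type cells 21.7%.

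Of genes lower in T cells, those of largest fold change among genes of at least 100 CPM were agr2, a secretory pathway protein, igl1c1, an immunoglobulin light chain, the protease inhibitor genes spink2.5, spink2.8, spink2.9, spink2.10 and spink2.11, mfap4.10, the cystatin cst14b.2 and teni.1. spink2.5 stood at 66.8, 57.8, 28.8 and 21.4 CPM in T cells against 586 to 1403 CPM in all other cells (log2 fold change -4.56 ± 0.53). For agr2 (fell by 5.30) the call was lost without library 2, at adjusted p = 0.058.

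Transcripts of other cell types were measured in the T cell sums. All 15 neutrophil markers were lower in T cells, with a summed level of 3967 to 11454 CPM against 29192 to 43502 CPM in all other cells, and none was at 0. The 12 erythroid markers summed to 3491 to 8292 CPM against 19085 to 24563 CPM, the 19 macrophage markers to 1306 to 1960 against 3942 to 4478 CPM, and the 9 thrombocyte markers to 39.5 to 76.9 against 302 to 343 CPM. The 21 B cell markers did not follow this order, with sums of 2986 to 5176 CPM in T cells and 2898 to 3670 CPM in all other cells, of which 1 was higher, 10 were lower and none was at 0. Most of that sum was cd74a, the class II invariant chain gene (mean 2314 CPM in T cells and 1878 CPM in all other cells, adjusted p = 0.66), while pax5 and cd37 stood at means of 2.95 and 0.596 CPM in T cells. Of the T cells 119 also met a macrophage or neutrophil marker rule. Without them 1956 genes were higher and 3695 lower, 4498 of the 4739 calls were kept with the same sign and 1 turned. The part of erythroid, thrombocyte and B cell transcripts was not tested.

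Against NK-type cells, the T cells differed in some transcription factors, homing receptors and cytotoxic genes. Of the 502 NK-type cells, 132 also held 2 or more of the 6 T cell rule genes, which bears on every value of this comparison. NK cells kill without a rearranged receptor, and those of zebrafish express NK-lysins and perforins. Of 7835 genes tested 4.38% were higher and 5.08% lower in T cells (343 and 398 genes, 9.46% together), and 636 and 634 with the library as a block. The libraries of the classes did not overlap for 6.97% of the genes, with T cells higher, and for 7.84%, with T cells lower. Without library 2 there were 213 higher genes, and at 2000 UMIs per cell 205 higher and 235 lower.

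The receptor pathway was only partly different. Of 30 signalling genes 7 were higher in T cells, 4 were lower and 19 did not pass, with a median log2 fold change of 0.36 against 0.02 for all genes. lat was higher in T cells at 194 to 492 CPM against 43.9 to 80.7 CPM in NK-type cells (log2 fold change 2.40 ± 0.34, adjusted p = 0.0015), prkcq by 1.82 ± 0.15 and themis by 1.91 ± 0.31. itk was higher by 1.07 ± 0.19, a call lost at 2000 UMIs per cell (adjusted p = 0.055). Lower in T cells were the adaptor lcp2b, at 12.7 to 25.4 CPM against 86.6 to 184 CPM (-2.99 ± 0.33), sla1 and the phosphatases ptpn6 and ptpn22. The kinase syk, which serves B and NK receptors as Zap70 serves T cells, stood at 213, 250, 286 and 278 CPM in T cells and at 838, 828, 701 and 768 CPM in NK-type cells (-1.60 ± 0.17, adjusted p = 0.00033).

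Transcription factors separated the classes in both directions, with 12 of 32 higher and 5 lower in T cells. bcl11ba stood at 15.7 to 25.5 CPM in NK-type cells (log2 fold change 3.6 ± 0.21), below every T cell value. ets1, foxp1b and foxo1a, the last a regulator of il7r and of homing genes in mouse T cells, were higher in T cells by 2.40, 2.38 and 1.84. foxp3a had 5 UMIs in NK-type cells, all in 1 cell, and its log2 fold change was 7.19 ± 0.63 (adjusted p = 0.00012), or 6.66 to 11.70 with 1 library left out. In the other direction tbx21 stood at 118, 109, 103 and 109 CPM in T cells and at 238, 300, 312 and 290 CPM in NK-type cells (-1.37 ± 0.15). eomesa, the T-box partner of tbx21 in NK cells, was at 4.01 to 25.3 against 92.6 to 276 CPM (-3.62 ± 0.55), and id2a fell by 2.77.

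The other genes of largest fold change in T cells were the co-receptor relative cd4-2.2 (log2 fold change 5.63 ± 0.33), the Ikaros family gene ikzf4 (4.78 ± 0.67), cd27 (4.00 ± 0.61), mxd, nat16l and the chemokines ccl20l, ccl20a.3 and ccl38a.4. ccl20l had no UMI in NK-type cells and was at least 97.2-fold higher in T cells, against a floor of 3 counts over the class, but its 751 UMIs lay in 35 T cells. Of 16 homing genes 6 were higher and 2 lower, and the receptors ccr7 and cxcr3.1 were higher in T cells by 3.66 and 2.54. cxcr3.1 stood at 77.5 to 106 CPM in NK-type cells, so that the classes did not overlap.

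The cytotoxic genes split. Of 15 effector genes tested 2 were higher in T cells and 8 lower, and the 2 were gzmk (log2 fold change 2.14 ± 0.17, adjusted p = 6.2e-05) and gzma (1.25 ± 0.22, adjusted p = 0.0054). gzma stood at 209, 169, 212 and 204 CPM in T cells and at 84.9, 85.8, 111 and 53.4 CPM in NK-type cells, and its call was lost with 3 or more rule genes asked of a T cell (0.92, adjusted p = 0.11). gzm3.3, tnfsf14 and the death ligand gene faslg were lower in T cells by 1.36, 1.84 and 1.69 on the log2 scale. prf1.8 had no UMI in T cells and was at least 1181-fold lower than in NK-type cells, against a floor of 3 counts over the class.

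nkl.1, an NK-lysin gene outside the rule, had 8 UMIs in 5 T cells and stood at 678 to 5374 CPM in NK-type cells (log2 fold change -11.11 ± 0.91). The other genes of largest fold change in NK-type cells were prf1.7, prf1.2, the cytokine receptor gene flt3, the transcription factor genes mef2b and creb5b, the chemokine gene ccl33.3, the adaptor gene fyb1a and dicp1.1, of a fish family of immunoglobulin-domain receptors. The call of creb5b was lost without library 4 (adjusted p = 0.089). T cells were chosen for holding no nkl.2, nkl.3, nkl.4 or prf1.9, so the direction of the related nkl and perforin genes follows in part from the rule. il2rb, of neither family, was at 1265 to 1554 CPM in NK-type cells, above every T cell library (-1.54 ± 0.19, adjusted p = 0.00066). The rule also turned away 312 of 1548 cells with 2 or more T cell rule genes for an NK gene. The direction of il2rb, and of any other gene found with the NK genes, may thus follow in part from the rule too.

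**Figure D4:**
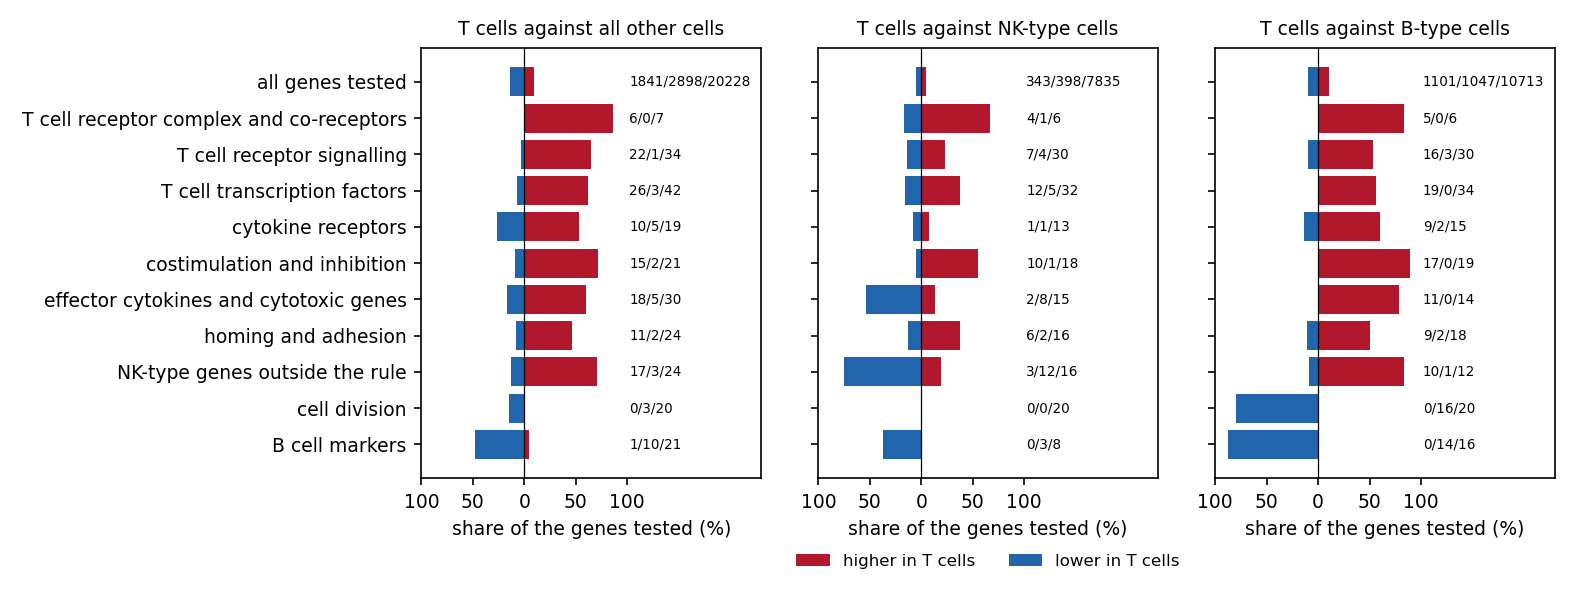
Share of the genes tested in each list that were higher (right) or lower (left) in T cells than in all other cells, NK-type cells and B-type cells at an edgeR adjusted p below 0.05, in percent, with the counts of higher, lower and tested genes beside each bar. The signalling list is 22 higher of 34 tested against all other cells and 7 higher of 30 against NK-type cells, and the cell division list is 16 lower of 20 against B-type cells.

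Against B-type cells 10.3% of 10713 genes were higher and 9.77% lower in T cells (1101 and 1047 genes, 20.1% together), and 1702 and 1540 with the library as a block. The libraries of the classes did not overlap for 11.1% of the genes, with T cells higher, and for 14.3%, with T cells lower. Without library 2 there were 627 lower genes, and at 2000 UMIs per cell 681 higher and 624 lower. Some T cell genes were near 0 in B-type cells, where itk had 11 UMIs (log2 fold change 6.83 ± 0.32), cd27 had 1 and foxp3a 3. Others were shared, as the signalling list summed to 3400 to 4272 CPM in B-type cells and 6783 to 7624 CPM in T cells. Of largest fold change in T cells were also lamp3, a lysosomal membrane protein gene (8.51 ± 0.49), gcnt7, a glycosyltransferase gene, il2rb, sh2d1ab and the chemokines ccl20l, ccl38a.5 and ccl38.6. cmah, whose mammalian enzyme modifies sialic acid, stood at 66.8, 89.0, 132 and 125 CPM in T cells and had no UMI in B-type cells, at least 288-fold higher against a floor of 3 counts over the class.

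Genes of the B lineage and of receptor rearrangement were among those lower in T cells. B-type cells were chosen by the cd79 genes that T cells had to lack, so the direction of B lineage genes follows in part from the rule. rag2 stood at 194, 281, 113 and 113 CPM in B-type cells and was at least 398-fold lower in T cells, against the same kind of floor, and rag1 fell by 9.48. cd37, a tetraspanin of B cells, stood at 901 to 1055 CPM in B-type cells and at most at 1.01 CPM in T cells (log2 fold change -10.31 ± 0.35). The light chain genes igl4v8, igl1v11, igl1c1 and igic1s1, the B cell coactivator pou2af1, plaat1l and cobll1a were the other genes of largest fold change. Of 20 cell division genes 16 were lower in T cells and 4 did not pass, with a median of -1.43, and mki67 stood at 56.7, 349, 242 and 261 CPM against 665 to 1142 CPM (-1.86 ± 0.47, adjusted p = 0.019). Its call was lost with 3 or more rule genes asked of a T cell (adjusted p = 0.064).

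Within the T cells, 385 (34.1%) held cd4-1 without cd8a, 178 (15.8%) held cd8a without cd4-1, 4 held both and 561 (49.7%) held neither. By library the cd4-1 cells numbered 79, 61, 131 and 114 and the cd8a cells 36, 21, 58 and 63. The cd8a cells were shallower in each library, at medians of 2156, 2517, 5658 and 4288 UMIs against 3633, 3272, 6015 and 6540.5. Co-receptor transcripts were few per cell, so the cells with neither may include cells of both kinds whose transcript was missed. The cd8a and cd4-1 cells were compared over 5217 genes, of which 0.211% were higher in cd8a cells and 0.460% lower (11 and 24 genes, 0.671% together). The libraries did not overlap for 2.36% of the genes, with cd8a cells higher, and for 4.89%, with cd8a cells lower. With the library as a block 36 were higher and 44 lower. Without library 4 there were 6 and 14, and without library 1 15 were lower. Of the 35 calls 18 to 26 were kept with 1 library left out. In libraries 1 and 2 alone 12 were kept, in libraries 3 and 4 alone 12, and at 2000 UMIs per cell 15.

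The factors that set the lineages in mice were found on opposite sides. zbtb7b, the factor that commits mouse thymocytes to the helper lineage, stood at 159, 220, 100 and 90.2 CPM in cd4-1 cells and at 8.71, 0, 16.6 and 0 CPM in cd8a cells (log2 fold change, cd8a against cd4-1, -4.06 ± 0.68, adjusted p = 0.019). runx3, the factor of the cytotoxic lineage, stood at 177, 138, 178 and 219 CPM in cd4-1 cells and at 505, 340, 378 and 323 CPM in cd8a cells (1.19 ± 0.22, adjusted p = 0.041). The groups did not overlap for either gene. The call of zbtb7b was lost without library 1 (adjusted p = 0.097) and without library 2 (0.10), and that of runx3 without any 1 of the 4 libraries (0.11 to 0.23).

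Genes higher in the cd4-1 cells included other helper and regulatory genes. cd4-2.2 stood at 269, 358, 362 and 385 CPM against 8.71, 26.2, 2.37 and 4.65 CPM in cd8a cells (log2 fold change -5.64 ± 0.44, adjusted p = 0.00015). foxp3a stood at 370, 467, 566 and 559 CPM against 26.1, 13.1, 73.3 and 14.0 CPM (-3.64 ± 0.46, adjusted p = 0.0035). Neither pair of groups overlapped. ikzf4 (-4.49), the tumour necrosis factor receptor gene tnfrsf18 (-4.24) and il1rl1, the interleukin-33 receptor gene (-5.20), followed the same pattern, and the calls of these 5 genes held without each library. In libraries 1 and 2 alone tnfrsf18 and il1rl1 lost theirs (adjusted p = 0.18 and 0.091), in libraries 3 and 4 alone il1rl1 did (0.055), and the log2 fold change of il1rl1 ran from -8.12 to -4.53 with 1 library left out. gata3 (-3.56) and the chemokine receptor gene ccr12a (-2.78) passed with all libraries, but gata3 lost its call without any 1 of the 4 (adjusted p 0.054 to 0.14), and ccr12a without library 1 (0.082) or library 4 (0.060). In libraries 3 and 4 alone foxp3a had a log2 fold change of -3.59 (adjusted p = 0.071).

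Also higher in cd4-1 cells were tspy, plp2a, ap1s1 and cxcl13, a chemokine that attracts B cells. cxcl13 stood at 388, 657, 44.8 and 97.3 CPM in cd4-1 cells against at most 2.33 CPM in cd8a cells, but 10 cells held 81.3% of its 536 UMIs. Its call was lost without library 1, 2 or 4 (adjusted p 0.11 to 0.15). plp2a lost its call without library 2, 3 or 4 (0.054 to 0.17) and ap1s1 without library 1, 3 or 4 (0.10 to 0.23), while tspy kept it without each library.

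Genes higher in the cd8a cells were fewer. il2rb stood at 392, 576, 795 and 623 CPM against 8.96, 36.2, 86.3 and 69.6 CPM in cd4-1 cells (log2 fold change 3.6 ± 0.51, adjusted p = 0.0062), with no overlap. gzm3.3, a granzyme gene, stood at 69.7, 39.3, 130 and 170 CPM against 0 to 7.47 CPM (4.77 ± 0.69, adjusted p = 0.0062). Its call was lost in libraries 3 and 4 alone (5.34, adjusted p = 0.057). lamp3 was higher by 2.79 ± 0.39 and capgb, an actin-capping gene, by 1.36 ± 0.24. The call of il2rb was lost without library 2 (adjusted p = 0.078) and with 3 or more rule genes asked of a T cell (0.077), that of lamp3 without library 2 (0.054) or 4 (0.060) and that of capgb without any 1 library (0.067 to 0.16).

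In the fit without a block, other cytotoxic genes did not pass between these cells. With the library as a block 36 and 44 genes passed in place of 11 and 24. Its values for gzma, gzmk and the signalling list are not given here. gzma stood at 261, 39.3, 487 and 451 CPM in cd8a cells against 29.1, 52.6, 80.5 and 39.3 CPM (log2 fold change 2.79 ± 0.56, adjusted p = 0.054), and the groups overlapped through library 2. gzmk had a log2 fold change of 1.14 (adjusted p = 0.13). All 27 signalling genes tested missed the threshold in the fit without a block, with 0 higher and 0 lower. The list's median was 0.27 against 0.02 for all genes. The macrophage markers summed to 1025 to 3366 CPM in cd4-1 cells and to 288 to 995 CPM in cd8a cells. Without the T cells that met the myeloid marker rule 12 genes were higher and 29 lower, with 28 of the 35 calls kept. lamp3 (adjusted p = 0.065), runx3 (0.20) and ap1s1 (0.090) lost theirs, while foxp3a and zbtb7b kept them.

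**Figure D5:**
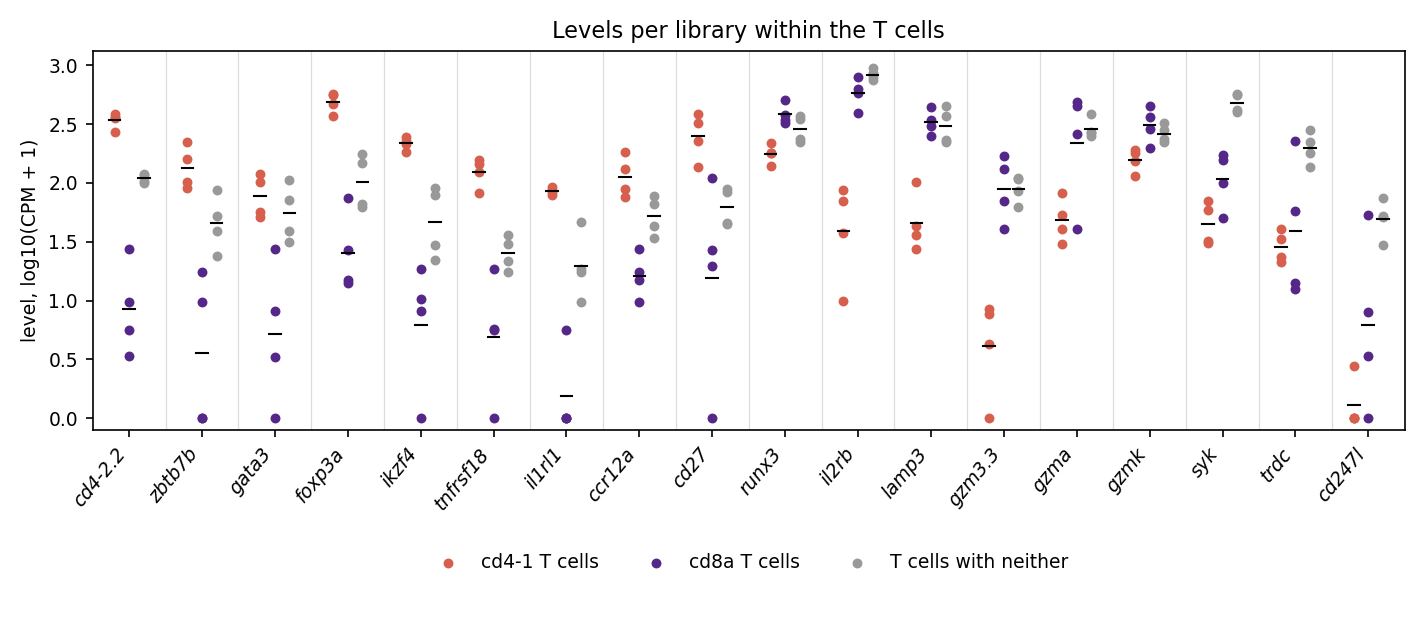
Level of 18 genes in cd4-1 T cells, cd8a T cells and T cells with neither on a log10(CPM + 1) scale, with 1 point for each of the 4 libraries and a line at the mean of the points. cd4-2.2, zbtb7b, foxp3a, ikzf4 and tnfrsf18 are highest in cd4-1 cells in every library, il2rb is lowest there, and syk is highest in the cells with neither.

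Within the cd4-1 cells, the cells with foxp3a shared cd27, ikzf4 and other genes. The split on foxp3a was chosen after its values were seen, and the values are a description with no test. foxp3a had a UMI in 140 of 385 cd4-1 cells (36.4%, exact 95% interval 31.5 to 41.4%), in 2.81% of cd8a cells and in 0.147% of neutrophil-type cells. After thinning to 2000 UMIs, with the cells still classed on all their UMIs, the shares in cd4-1 and cd8a cells were 30.0 and 2.52%. By library 37, 25, 40 and 38 cd4-1 cells held it, with a median depth of 5917.5 UMIs against 5073 in the 245 without. In libraries 3 and 4 the cells with foxp3a were deeper (medians 9918.5 and 8601 UMIs) than those without (5232 and 5786.5).

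cd27 had a UMI in 56.4% of the cd4-1 cells with foxp3a (47.8 to 64.8%) and in 1.63% of those without (0.447 to 4.13%). Its level was 512, 393, 765 and 1076 CPM in the first and 0, 0, 7.06 and 4.16 CPM in the second, with no overlap. The same order held for ikzf4, the Eos gene of mammalian regulatory T cells (75.0 against 7.35% of cells), il1rl1 (54.3 against 4.90%), tnfrsf9a (62.9 against 7.76%), ccr12a (61.4 against 20.0%) and tnfrsf18 (42.9 against 17.1%).

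Other genes took the opposite order. foxp3b had a UMI in 8.57% of the cells with foxp3a (4.51 to 14.5%) and in 29.4% of those without (23.8 to 35.5%), so the paralogues were mostly found in different cells. cd5 (17.9 against 45.7%), gzma (7.14 against 19.6%), gzmk (25.7 against 45.7%) and zbtb7b (28.6 against 46.9%) were also found less often. ccl38a.4 had 1 UMI in the 140 cells with foxp3a and 873 UMIs in 27 of the 245 cells without. cd4-2.2 had a UMI in 77.9 and 78.8% of these cells, and lat in 70.0 and 72.7%.

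The 561 cells with neither cd4-1 nor cd8a held more syk, il2rb, cd247l and nitr2a than cd4-1 cells, again as a description with no test. Of these genes syk alone also lay apart from the cd8a cells. The co-receptor relative cd4-2.2 had a UMI in 78.4% of cd4-1 cells, in 2.25% of cd8a cells and in 24.6% of these 561 cells. syk stood at 417, 400, 560 and 571 CPM in them, against 29.6 to 68.7 CPM in cd4-1 cells and 48.8 to 170 CPM in cd8a cells, and did not overlap with either. The share of all genes without overlap was not computed for this split. il2rb stood at 745 to 941 CPM and overlapped with the cd8a cells. cd247l stood at 28.9 to 73.2 CPM against at most 1.79 CPM in cd4-1 cells, and nitr2a at 28 to 82.0 CPM against at most 0.893 CPM, while 1 cd8a library each reached 52.3 and 52.4 CPM. In NK-type cells syk stood at 701 to 838 CPM, and the cells here were chosen for holding no UMI of nkl.2, nkl.3, nkl.4 or prf1.9.

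Among the cells with neither, trdc and trgv2 were found together. trdc had UMIs in 94 of the 561 cells (16.8%, 13.8 to 20.1%), against 7.01% of cd4-1 cells, 7.30% of cd8a cells and 1.14% of neutrophil-type cells. At 2000 UMIs per cell, with the cells still classed on all their UMIs, the shares were 13.4, 4.59, 6.29 and 0.278%. The split on trdc was chosen after its values were seen. trgv2 had a UMI in 60.6% of the 94 cells (50.02 to 70.6%) and in 0.857% of the 467 without trdc (0.234 to 2.18%). Its level was 1404, 1350, 872 and 893 CPM in the first and 0 to 7.15 CPM in the second.

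sox13, a factor of gamma-delta T cells in mice, had a UMI in 30.9% of the 94 cells (21.7 to 41.2%) and in 1.93% of the others. gata3 was also found more often in the cells with trdc (29.8 against 9.42%). syk (29.8 against 54.4%), gzma (23.4 against 44.1%) and themis (23.4 against 42.8%) were found less often in them. trac was detected in 89.4 and 95.3%, at 463 to 499 CPM in the cells with trdc and 910 to 933 CPM in those without, and over all T cells trdc was seen with trac in 122 cells and without it in 12. The rule asks for trac or its partners, so delta chain cells without them were not collected.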

How the data were processed

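The authors deposited raw UMI counts per gene and cell of 4 BD Rhapsody 3' libraries (poly(A) RNA). The submitters' processing notes name GRCz11, UMI-tools and Seurat 4.2. The filters on cells were not found in these sources. Counts were read as deposited, and genes unlisted in a library were set to 0. UMIs of the mitochondrial protein genes thus enter the depths and CPM totals of libraries 3 and 4 alone. Of the file symbols 21908 matched RefSeq symbols (assembly GRCz12tu, used for names only) and 1145 placeholders took the RefSeq name. No doublet caller was run. T cells that met a myeloid marker rule (3 or more of 7 macrophage or 6 neutrophil genes) were left out as an alternative.

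Counts were summed per library and class, with 3 or more cells a sum, and tested with edgeR 4.0.16 (TMM, filterByExpr, quasi-likelihood; R 4.3.3), with Benjamini-Hochberg adjustment over all genes and a threshold of 0.05. DESeq2 1.42.0 was an alternative. Both sums of a comparison come from the same library and so from the same animals, which pairs them, and block values are printed. Their deviations correlated by 0.29 to 0.64 within a library, by 0.18 to 0.63 between libraries 1 and 2 or 3 and 4, and negatively across these pairs, so the correlation follows the pairs of libraries and does not by itself show pairing by library. The fits were also run on simulated counts with the same dispersion for every gene and no difference between library pairs. Those counts lack the pattern of the pairs, so they do not show how the fits behave under it. P-values measure only the spread between these 4 libraries. Totals per library and the UMIs per T cell set the precision of each value. Shares have exact (Clopper-Pearson) 95% intervals, counts of 0 a limit of 3 counts. Intervals and floors cover counting error only.

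The text names the rule's genes, genes of the lists and, per comparison and direction, the 10 genes of largest fold change among those with adjusted p below 0.05, no overlap of the 4 libraries, a mean of at least 100 CPM in the higher class and a gene name. Only 5 genes met this in cd8a cells. The members, lists and comparisons were chosen with earlier results of these data known. Genes outside lists and rule in the descriptions of subsets, such as sox13, were chosen after their values were seen. Alternatives were the block, DESeq2, no TMM, no filter on low counts, each library left out, library pairs alone, other T cell rules and thinning to 2000 UMIs per cell (seed 1). Fits and gene shares on thinned counts kept the classes set from all UMIs, so an effect of depth on the classes stays in them. Only the shares of classes in a library had the rule applied again.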

Additional observations from a re-analysis of the deposited data

Results flagged for a closer look

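Of 45 values checked over the 4 libraries, 2 had a library far from the other 3. The check flags 1 in 20 values by chance only if the 4 libraries vary independently. The libraries here fall into pairs, so no chance rate is set beside the 2. ccl20a.3 stood at 309 CPM in the T cells of library 2, against 79.3 to 106 CPM in the other libraries, and its UMIs lay in 45 T cells, 62.1% of them in 10 cells. capgb stood at 179 CPM in the cd8a T cells of library 4, against 258 to 262 CPM in the other libraries.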

How the results depend on the processing

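Direction was kept by all 186 gene results under each alternative, and 151 also kept their side of the threshold in each. The genes of largest fold change were chosen for no overlap of these same 4 libraries. Their direction could hardly turn, so that it is no separate support. Over 2560 pairs of gene result and alternative, 101 lost the call, 64 of them between cd8a and cd4-1 cells, and 3 gained it. The share of T cells moved by less than 1 SD of the libraries in each alternative, at 2.79% with 3 or more rule genes and 5.54% with no cell left out for NK or B genes. That SD is set mainly by the gap between the library pairs, so this measure cannot show that the share was stable. Libraries 1 and 2 alone gave 2.25%, and libraries 3 and 4 alone 5.81%. With the library as a block, 2804 genes were higher and 4656 lower than in all other cells, 636 and 634 against NK-type cells, 1702 higher against B-type cells, and 36 and 44 between cd8a and cd4-1 cells. It ended no call of a named gene. In libraries 3 and 4 alone, 3416 genes were higher than in all other cells, 647 and 714 differed from NK-type cells, and 9 were lower in cd8a cells. At 2000 UMIs per cell the counts were 205 and 235 against NK-type cells, 681 and 624 against B-type cells and 6 and 11 between cd8a and cd4-1 cells. DESeq2 gave 33 and 42 for the last comparison, and no filter on low counts 205 and 158. Leaving out 1 library gave 1538 to 1869 genes lower than in all other cells, 213 to 256 higher than in NK-type cells, 627 to 776 lower than in B-type cells, and 6 to 12 higher and 14 to 20 lower in cd8a cells. The cause of these moves was not tested, beyond the fewer libraries or UMIs. No filter on low counts moved the median of all genes by -0.24 against all other cells by 0.15 against NK-type cells and by -0.20 between cd8a and cd4-1 cells. The comparison within T cells rests on 21 to 63 cd8a cells a library.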

Other observations

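The chemokine genes of T cells differed in how many cells held them. ccl34b.4 had UMIs in 53.0% of T cells, with 11.9% of its 19562 UMIs in 10 cells. ccl38.6 had UMIs in 21.8% and ccl38a.5 in 14.4% of T cells, with 21.5 and 29.6% of the UMIs in 10 cells. For ccl20l, ccl20a.3 and cxcl13 the 10 cells with most held 63.9, 62.1 and 77.7% of the UMIs. Among signalling genes the 10 cells with most held 6.70% of the lat UMIs, 6.87% of the itk UMIs and 6.13% of the themis UMIs, but 11.6% of the prkcq and 11.5% of the sh2d1ab UMIs, close to ccl34b.4.

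The share of T cells with a foxp3a UMI was 21.5, 19.6, 13.8 and 13.1% in libraries 1 to 4, lower in the 2 deeper libraries, while the level of foxp3a in CPM was 198, 262, 291 and 296. For gzma the share was 26.5, 21.6, 39.8 and 40.2%, and its level 209, 169, 212 and 204 CPM. No order is read from the shares, which go against the levels for foxp3a.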
